A study of Mus musculus with 17 samples.

Results

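The lungs described here came from mice with an overactive allele of Nlrp3 and from their controls, 3 libraries of each, which are 6 of the 17 libraries of the series. The mutants are labelled LysMcre;Nlrp3A350V, and the controls are labelled as controls, with no statement of whether they carried the Cre or the Nlrp3 allele. LysM-cre is driven by the Lyz2 locus, which is active in macrophages, monocytes and neutrophils and also in the type 2 cells of the alveolar epithelium, so the allele is not switched on in every lung cell. Whole lung was used, and age, sex and litter were not given in the labels. Whether each library stands for a different animal is not stated, so p-values here rest on differences between libraries that could be technical. The table held 24327 genes after the removal of lines whose name had turned into a date, of which 13549 reached 1 FPKM (fragments scaled to the length of the gene and the size of the library) in at least 3 of the 6 libraries and were tested. No header or label names the unit of the values, and FPKM is inferred from how the low values scale.

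NLRP3 is a sensor that, once active, assembles with the adaptor ASC and caspase-1 into an inflammasome. Caspase-1 then cleaves the precursors of IL-1β and IL-18 and opens gasdermin D pores through which both cytokines leave the cell, and signals from their receptors induce chemokines and growth factors that call in neutrophils. The A350V allele is a missense allele known for switching the sensor on without its usual stimulus. The series asked how such activity disturbs the making of the gas exchange surface, the thin walls of the alveoli, which are built after birth by epithelium, capillaries and myofibroblasts that lay down elastin.

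Relative depth, read from the smallest FPKM steps, lay between 0.79 and 1 across libraries, and 13226 to 13358 genes reached 1 FPKM in each. Total FPKM was higher in mutant lungs (529612 ± 19824, SD, n = 3) than in control lungs (472007 ± 11062, SD, n = 3), and at equal total FPKM the median log2 change of all tested genes would be -0.147. Values are reported as deposited, where that median was 0.0023. Counts at equal total FPKM are added for some lists, among them those whose share of calls that were higher moved by over 10 percentage points. Lists given without such counts could still lose calls there, as the IL-1 family (13 to 11 higher) and clock genes (10 to 7 higher) did. Libraries correlated across genes with r of 0.9885 to 0.9938 within a group and 0.9233 to 0.9409 between the groups. The 3 mutant libraries held 40.3, 38.6 and 37.7 FPKM of Xist, the RNA that coats the inactive X chromosome in females, against 0.0426, 0.0121 and 0.0236 FPKM in the 3 control libraries. Y-linked genes (Uty, Kdm5d, Ddx3y and Eif2s3y) were close to 0 in the mutants and present in the controls. In a list of 6 genes, Xist and X-linked genes that escape silencing, 5 were higher, Xist among them (4 at equal total FPKM). Genotype and sex therefore cannot be told apart in any result below. Of 433 tested genes of the X chromosome, 120 were higher and 121 lower, a called share of 55.7% that lay within the 50.8% to 63.0% seen on single autosomes. Named transcripts of fat, liver, thymus, oesophagus and thyroid, 13 genes in all, summed to 2.15, 2.73 and 1.93 FPKM in mutant lungs and 5.96, 5.60 and 3.20 FPKM in control lungs, and none of them was tested because of their low level. The label of lung was borne out by Sftpc, Scgb1a1, Pecam1 and Col1a1, the marker genes of alveolus, airway, vessel and mesenchyme whose values are given below, which were present in every library.

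Many of the tested genes differed between mutant and control lungs. Secreted defence proteins such as Serpina3n, Saa3 and Chil3 were among the largest rises, and cell division, globin and matrix genes among the larger falls. With limma on log2(FPKM + 1) and Benjamini-Hochberg adjustment, 7528 of 13549 tested genes passed an adjusted p of 0.05 (55.6%), with 3788 higher in mutant lungs (28.0%) and 3740 lower (27.6%). When any 1 library was left out, 6145 to 7114 of the 13549 genes were called. At equal total FPKM the split was 2400 higher and 5601 lower. Most of these differences were small, since 4093 of the 7528 were under 0.5 on the log2 scale. A log2 change of at least 1 was reached by 583 genes upward (4.30%) and 513 downward (3.79%), of at least 2 by 118 upward and 54 downward, and of at least 3 by 44 upward and 5 downward. The groups did not overlap in 8704 genes (64.2%). In FPKM, the gains summed to 119650 and the losses to -62050, and the 10 largest gains alone made up 37481.

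**Figure D1:**
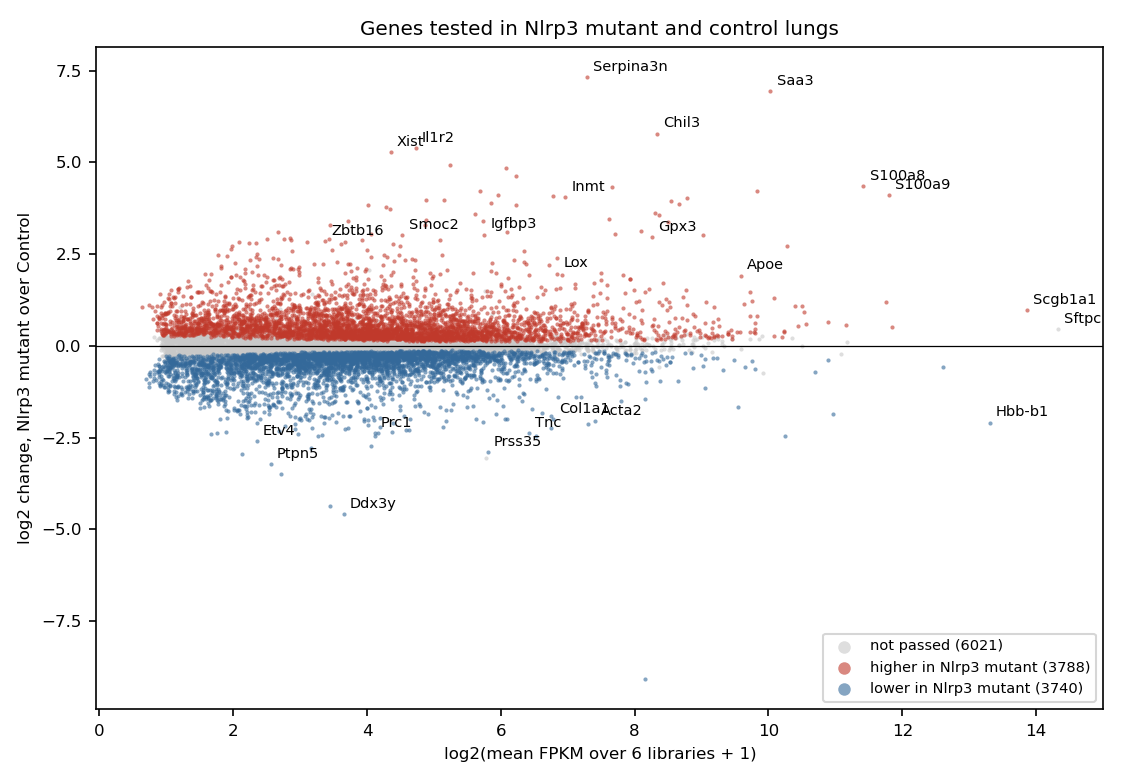
Each point is 1 of 13549 tested genes, with the log2 of its mean FPKM + 1 over the 6 libraries on the x axis and its log2 change (Nlrp3 mutant over Control) on the y axis, coloured by whether it passed upward (3788), downward (3740) or not (6021). The far tail above 3 is denser upward (44 genes) than downward (5 genes), and the lowest point is the short RNA gene Mir703, which was listed at 0 in all mutant libraries.

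The most strongly raised gene was the serine protease inhibitor Serpina3n, at 326, 294 and 306 FPKM in mutants, against 0.899, 0.894 and 0.996 in controls (log2 change 7.32, SE 0.0582, adjusted p = 4.6e-10). Its mutant libraries lay within a narrow band, far above every control. Asprv1, a protease better known from skin that is also abundant in neutrophils, had 148, 112 and 126 FPKM in mutants, against 3.53, 1.47 and 6.99 in controls (log2 change 4.85, SE 0.36). Ifitm6, a myeloid member of the interferon-induced transmembrane family, had 468, 301 and 381 FPKM in mutants, against 11.3, 14.1 and 34.5 in controls (log2 change 4.34, SE 0.36). In both the 3 mutants were far above the 3 controls, with replicate 2 the lowest mutant and replicate 3 the highest control. Inmt, an enzyme that methylates indole amines and is abundant in adult alveolar fibroblasts, had 124, 351 and 228 FPKM in mutants, against 9.60, 9.47 and 18.9 in controls (log2 change 4.05, SE 0.38, adjusted p = 9.6e-05), with replicate 2 the highest mutant. Among the largest falls were Ptpn5, a tyrosine phosphatase (0.191, 0.0242 and 0.209 FPKM in mutants, against 8.77, 10.8 and 9.31 in controls, log2 change -3.22, SE 0.11), Prss35, a serine protease-like protein (15.6, 9.07 and 12.6 FPKM in mutants, against 102, 95.7 and 94.1 in controls, log2 change -2.90, SE 0.16), and Slitrk6, a leucine-rich repeat membrane protein (1.28, 1.10 and 1.35 FPKM in mutants, against 16.6, 16.3 and 11.0 in controls, log2 change -2.78, SE 0.15). The serine protease Htra1 (log2 change -2.46, SE 0.16), the transcription factor Mxd3 (log2 change -2.46, SE 0.11) and the surface protein Ly6d (log2 change -2.39, SE 0.22) followed. None of these falls had a mutant library that reached a control library. Separation of the groups was required of every gene in this paragraph, since the largest changes were drawn from genes whose groups did not overlap.

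In absolute terms a few very abundant transcripts made up much of the gain. Scgb1a1, the main secretoglobin of airway club cells, had 18818, 20686 and 19023 FPKM in mutants, against 8438, 9007 and 13090 in controls (log2 change 0.97, SE 0.23, adjusted p = 0.00799), and it missed the threshold when low genes were left in the fit. Scgb3a2, a second secretoglobin, had 5173, 4473 and 4738 FPKM in mutants, against 1882, 1926 and 2535 in controls (log2 change 1.19, SE 0.15). Cbr2, a carbonyl reductase of club cells, had 1943, 2009.7 and 1964 FPKM in mutants, against 840.5, 819 and 1135 in controls (log2 change 1.10, SE 0.13). Among the large losses beside the globins were Tmsb10, an actin-binding thymosin, at 1342, 1203 and 1225 FPKM in mutants, against 2002, 1922 and 2261 in controls (log2 change -0.71, SE 0.0986), Nrep, a small protein linked to neuronal regeneration, at 436, 291 and 353 FPKM in mutants, against 1133, 1101 and 1154 in controls (log2 change -1.67, SE 0.13), and Ptma, the chromatin protein prothymosin, at 705, 694 and 694 FPKM in mutants, against 1119, 1042 and 1097 in controls (log2 change -0.64, SE 0.0676). In these 6 genes the groups did not overlap.

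Genes of the inflammasome and of the IL-1 family were mostly higher, receptors and decoys included. Among 15 tested inflammasome genes, 10 were higher and 0 lower (median log2 change 0.57, against 0.0023 over all tested genes), and at equal total FPKM 8 were higher and 1 lower. Their called share was 66.7% against 55.6% over all tested genes. Beside sensors, adaptor, caspases and gasdermins, the list holds Txnip and the cytokines Il1b and Il18. Both cytokines are counted again in the IL-1 family below. Nlrp3 itself (chromosome 11, 59541568 to 59566956, GRCm38) had 3.14, 2.73 and 2.95 FPKM in mutants, against 0.973, 1.39 and 1.22 in controls (log2 change 0.85, SE 0.10), with no overlap, although reads from a missense allele cannot be separated from normal ones, so the label is not checked by this level. Casp4, the protease that senses cytoplasmic lipopolysaccharide, had 9.27, 5.97 and 7.74 FPKM in mutants, against 1.42, 1.47 and 1.76 in controls (log2 change 1.75, SE 0.14, adjusted p = 5.0e-05). Dfna5, which encodes the pore-former gasdermin E, had 2.98, 2.24 and 2.34 FPKM in mutants, against 0.786, 0.593 and 0.821 in controls (log2 change 1.02, SE 0.12). Txnip, which binds thioredoxin and can bind NLRP3, had 723, 773 and 730.4 FPKM in mutants, against 367, 288 and 316 in controls (log2 change 1.20, SE 0.0939). For each of the last 3 every mutant library was above every control library. Casp8 (log2 change -0.10, SE 0.0604), Gsdmd (log2 change 0.22, SE 0.12) and Aim2 (log2 change 0.055, SE 0.13) did not pass, and the other sensors Nlrp1b, Nlrc4, Nlrp6 and Mefv stayed too low to be tested.

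Of the 14 tested ligands, receptors and decoys of the IL-1 family, 13 were higher and 1 was lower (median 0.98, 12 to 13 higher when any 1 library was left out). Of the ligands, Il1f9, the epithelial cytokine IL-36γ, had 8.59, 5.83 and 8.79 FPKM in mutants, against 0.405, 0.421 and 0.752 in controls (log2 change 2.51, SE 0.16, adjusted p = 2.0e-05). Il1a, the alarmin IL-1α, had 2.34, 3.02 and 2.92 FPKM in mutants, against 0.824, 0.646 and 0.847 in controls (log2 change 1.08, SE 0.11). Il18 had 21.2, 14.9 and 16.7 FPKM in mutants, against 8.71, 5.88 and 7.14 in controls (log2 change 1.17, SE 0.15). Il1b had 20.4, 9.19 and 13.2 FPKM in mutants, against 3.97, 3.07 and 7.12 in controls (log2 change 1.41, SE 0.31). In Il1f9, Il1a and Il18 no control reached a mutant library, and the mutant values of Il1b spread the most, with replicate 2 lowest. The decoys rose too. Il1r2, which binds IL-1 without signalling, had 64.0, 36.3 and 52.2 FPKM in mutants, against 0.257, 0.0593 and 0.319 in controls (log2 change 5.39, SE 0.19, adjusted p = 2.8e-06). This gene is also counted among the neutrophil markers below. Il1rn, the soluble receptor antagonist, had 14.4, 11.6 and 11.9 FPKM in mutants, against 6.77, 4.98 and 6.04 in controls (log2 change 0.98, SE 0.12). Il18bp, which neutralises IL-18, had 5.08, 3.41 and 4.29 FPKM in mutants, against 2.84, 2.03 and 2.24 in controls (log2 change 0.64, SE 0.14). Both chains of the IL-18 receptor were higher, Il18r1 (log2 change 0.98, SE 0.0872), the ligand-binding chain, and Il18rap, the signalling chain, at 7.11, 4.54 and 6.03 FPKM in mutants, against 0.952, 0.771 and 1.24 in controls (log2 change 1.78, SE 0.15). Il1rl2, the IL-36 receptor, was the only member below its controls (3.58 ± 0.340 FPKM in mutant lungs and 5.14 ± 0.812 FPKM in control lungs, SD, n = 3 each, log2 change -0.42, SE 0.11), and its adjusted p missed 0.05 without control replicate 1 or 2.

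Tnf, the gene of the cytokine named in the series title, did not pass the test. It had 1.08, 1.19 and 1.54 FPKM in mutants, against 0.848, 1.21 and 1.20 in controls (log2 change 0.12, SE 0.12, adjusted p = 0.432), and the groups overlapped. Its receptor Tnfrsf1a was higher (119, 109 and 112 FPKM in mutants, against 66.4, 72.0 and 83.1 in controls, log2 change 0.62, SE 0.0843), as was Tnfaip3, the feedback inhibitor A20 (35.9, 12.7 and 25.7 FPKM in mutants, against 7.72, 7.74 and 8.24 in controls, log2 change 1.42, SE 0.31), and Tnfsf14, the T cell and myeloid cytokine LIGHT (5.62, 4.21 and 5.52 FPKM in mutants, against 0.526, 0.485 and 0.997 in controls, log2 change 1.88, SE 0.15). The second receptor Tnfrsf1b (log2 change -0.092, SE 0.17), the lymphotoxin gene Ltb (log2 change -0.23, SE 0.20) and the adaptor Tradd (log2 change 0.089, SE 0.0928) did not pass, and Traf2, another adaptor, was lower (log2 change -0.43, SE 0.0666). Altogether 6 of 12 tested members rose and 1 fell (median 0.16), a called share of 58.3% against 55.6% over all tested genes.

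Genes of the IL-6 family and its STAT3 feedback were more often higher than lower. Socs3, which STAT3 induces and which shuts its receptors down, had 90.8, 34.2 and 67.8 FPKM in mutants, against 16.9, 16.2 and 19.7 in controls (log2 change 1.71, SE 0.30, adjusted p = 0.00201). Osmr, the oncostatin M receptor, had 24.9, 14.3 and 20.5 FPKM in mutants, against 7.38, 7.32 and 7.70 in controls (log2 change 1.27, SE 0.17). Il6ra, the IL-6 receptor, had 12.6, 15.1 and 13.2 FPKM in mutants, against 5.40, 4.48 and 6.23 in controls (log2 change 1.20, SE 0.11). The ligand Osm had 3.94, 2.70 and 3.00 FPKM in mutants, against 1.23, 0.632 and 0.932 in controls (log2 change 1.13, SE 0.15). These 4 showed no overlap between mutants and controls. Il6 and Il11 were too low for a test, and the ligand Clcf1 (log2 change -0.37, SE 0.10) was lower. Of 14 tested members 8 rose and 2 fell (7 higher and 3 lower at equal total FPKM), the call of Clcf1 ending without control replicate 2. Colony-stimulating factors and their receptors had a called share of 63.6% against 55.6% over all tested genes. Of the 11 tested, 6 rose and 1 fell (5 higher and 2 lower at equal total FPKM). The largest was Csf3r, the receptor for the neutrophil growth factor G-CSF (16.6, 10.7 and 14.3 FPKM in mutants, against 3.27, 2.66 and 4.35 in controls, log2 change 1.75, SE 0.18), and Csf1, the macrophage growth factor, followed among ligands (28.4, 15.7 and 22.7 FPKM in mutants, against 9.79, 12.2 and 11.8 in controls, log2 change 0.89, SE 0.19), while its receptor Csf1r did not pass (log2 change 0.080, SE 0.15).

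Chemokines that draw neutrophils were mostly higher. Cxcl15, a chemokine abundant in lung epithelium, had 1262, 1064 and 1141 FPKM in mutants, against 664, 596 and 697 in controls (log2 change 0.82, SE 0.0946) and far exceeded the others in level. Cxcl1 had 14.5, 3.58 and 11.5 FPKM in mutants, against 0.557, 1.46 and 0.691 in controls (log2 change 2.36, SE 0.42). Cxcl2 had 8.26, 3.25 and 5.87 FPKM in mutants, against 0.537, 0.386 and 0.166 in controls (log2 change 2.26, SE 0.26). Their receptor Cxcr2 had 42.6, 29.7 and 37.1 FPKM in mutants, against 1.78, 0.874 and 3.18 in controls (log2 change 3.73, SE 0.27, adjusted p = 3.0e-05). In the ligands and the receptor, all mutants stood above all controls. Of 9 tested members of that group 7 rose (median 2.24). The 7 include Pf4 and Ppbp, which are also counted among the platelet genes below, and Cxcr2, also counted among neutrophil markers. Cxcl12, which retains cells in the marrow and lung, did not pass (log2 change 0.012, SE 0.12), and its receptor Cxcr4 was lower (53.2, 53.7 and 49.7 FPKM in mutants, against 64.7, 68.5 and 73.0 in controls, log2 change -0.39, SE 0.0608). Among CC chemokines 8 of 15 rose and 3 fell. Those that rose most were Ccr1, a receptor of neutrophils and monocytes (46.9, 29.6 and 37.5 FPKM in mutants, against 5.49, 4.21 and 5.00 in controls, log2 change 2.71, SE 0.16), Ccl11, the eosinophil attractant eotaxin (18.4, 12.4 and 16.1 FPKM in mutants, against 1.7, 2.42 and 3.70 in controls, log2 change 2.22, SE 0.21), and Ccl2, the monocyte attractant (15.5, 3.64 and 11.7 FPKM in mutants, against 1.98, 2.28 and 1.60 in controls, log2 change 1.75, SE 0.41). Those that fell included the lymphocyte and dendritic cell homing receptor Ccr7 (0.918, 1.09 and 0.920 FPKM in mutants, against 3.33, 3.87 and 4.80 in controls, log2 change -1.33, SE 0.12) and the dendritic cell chemokine Ccl22 (0.592, 0.600 and 0.415 FPKM in mutants, against 1.85, 1.80 and 1.75 in controls, log2 change -0.87, SE 0.0996). The monocyte receptor Ccr2 did not pass (7.83 ± 1.55 FPKM in mutant lungs and 10.1 ± 1.41 FPKM in control lungs, SD, n = 3 each, log2 change -0.34, SE 0.14).

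Neutrophil markers were summed per library to show how evenly they moved. Over 18 markers found in the table the sum was 16119, 9815 and 13736 FPKM in mutant lungs and 707, 439.9 and 1503 FPKM in control lungs, with mutant replicate 2 the lowest mutant and control replicate 3 the highest control. Of the 15 tested, 13 rose (median 3.11, 13 to 14 when any 1 library was left out). Mature markers led, such as the collagenase Mmp8 (161, 127 and 141 FPKM in mutants, against 4.66, 2.78 and 8.12 in controls, log2 change 4.63, SE 0.28) and the resistin-like Retnlg (202, 207 and 208 FPKM in mutants, against 10.8, 6.18 and 21.0 in controls, log2 change 4.07, SE 0.34). Of granule genes made in the marrow, Ltf, lactoferrin, rose (174, 65.3 and 125 FPKM in mutants, against 9.21, 8.43 and 22.6 in controls, log2 change 3.11, SE 0.42) and so did the serine protease Prtn3 (6.90, 4.02 and 5.39 FPKM in mutants, against 0.310, 0.356 and 1.63 in controls, log2 change 1.92, SE 0.28), whereas Mpo, Elane and Ctsg stayed below the level for a test. Camp, the cathelicidin gene, did not pass and its groups overlapped, at 118, 34.8 and 77.8 FPKM in mutants, against 19.7, 12.0 and 56.8 in controls (log2 change 1.48, SE 0.59, adjusted p = 0.0624). In a whole-lung library more or fewer cells of a type and more or less RNA per cell cannot be told apart. The calprotectin genes S100a8 (6153, 3887 and 5525 FPKM in mutants, against 242, 135 and 473 in controls, log2 change 4.35, SE 0.40) and S100a9 (8244, 4955 and 6849 FPKM in mutants, against 342, 206 and 762 in controls, log2 change 4.11, SE 0.43), which are abundant in neutrophils, headed the S100 family, of which 7 of 12 rose and 3 fell (7 higher and 5 lower at equal total FPKM), S100a4, a calcium-binding protein of fibroblasts and leukocytes, most (28.5, 17.7 and 21.7 FPKM in mutants, against 35.7, 36.7 and 66.6 in controls, log2 change -0.97, SE 0.25). All 5 tested chitinase and lysozyme genes rose, with Chil3, a chitinase-like protein of macrophages and neutrophil precursors, at 866, 395 and 641 FPKM in mutants, against 12.8, 5.46 and 13.9 in controls (log2 change 5.78, SE 0.36, adjusted p = 1.9e-05), Chia1, the acidic chitinase, at 60.1, 55.2 and 57.2 FPKM in mutants, against 10.5, 5.37 and 14.5 in controls (log2 change 2.49, SE 0.28), and Lyz2, the gene whose locus drives the Cre, at 2233, 1624 and 1956 FPKM in mutants, against 1122, 815 and 1132 in controls (log2 change 0.92, SE 0.16).

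**Figure D2:**
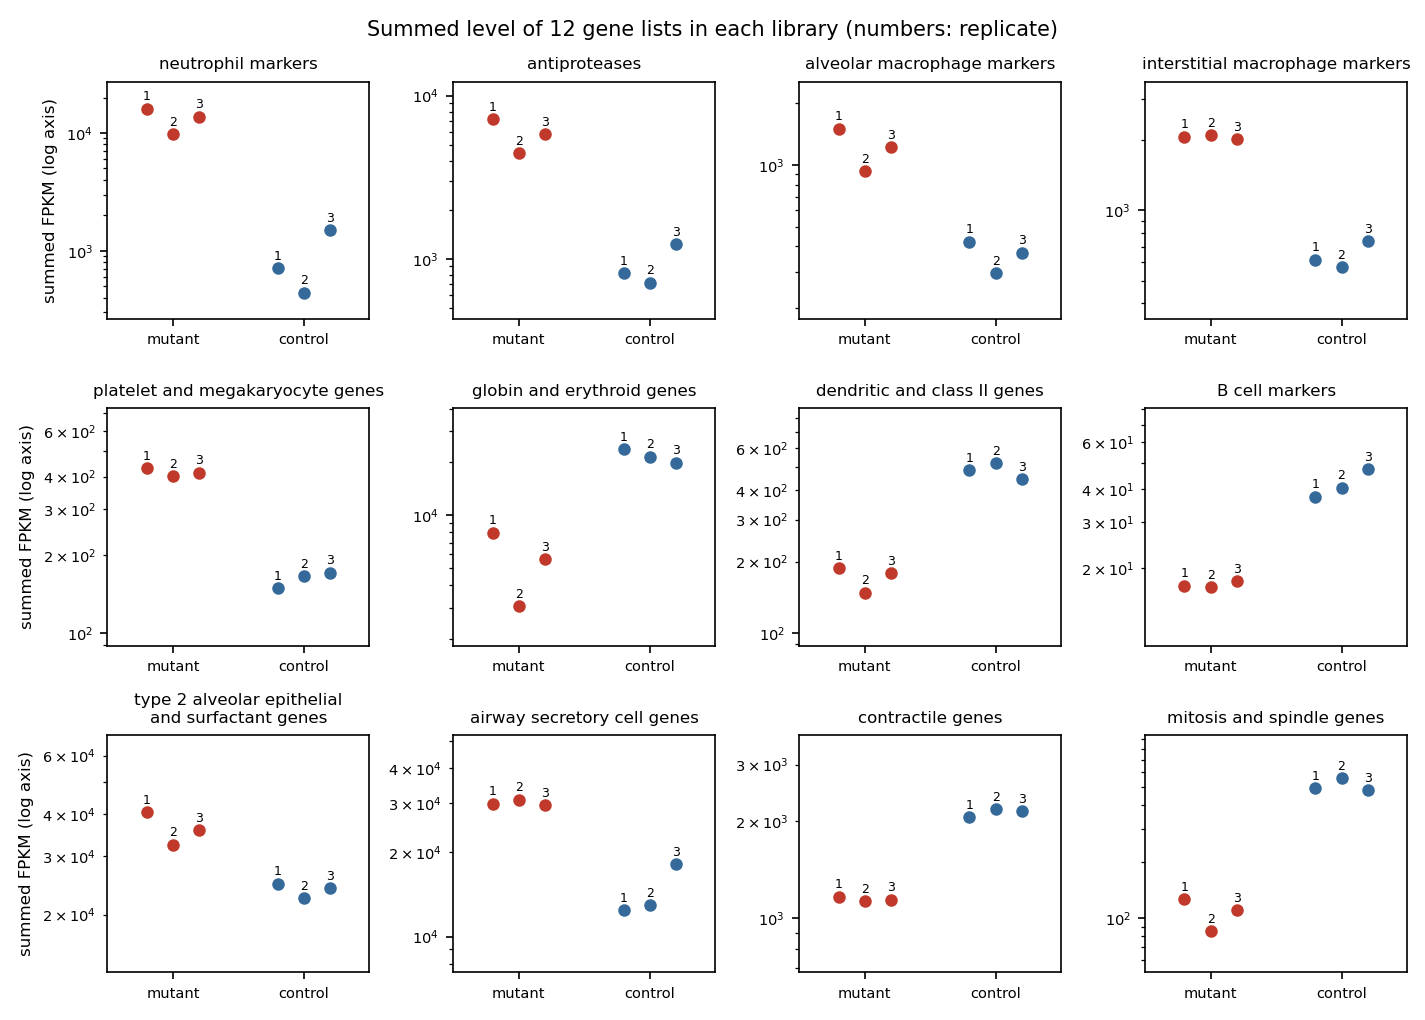
Each panel gives the summed FPKM (log axis) of 1 of 12 gene lists in every library, mutant libraries on the left and control libraries on the right, with the replicate number above each point. The mutant and control libraries are apart in all 12 panels. Mutant replicate 2 is the lowest mutant in every panel except those of interstitial macrophage markers and airway secretory genes, where it is the highest. Its sums were 9815 FPKM for neutrophil markers, 4450 FPKM for antiproteases and 3040.5 FPKM for globin and erythroid genes.

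Protease inhibitors and acute phase proteins, which limit tissue damage by neutrophil enzymes and bind bacterial products, rose almost without exception. Of 18 tested antiproteases 17 were higher and none lower (median 3.43). Slpi, the secretory inhibitor of neutrophil elastase, had 111, 88.1 and 90.3 FPKM in mutants, against 9.02, 5.69 and 10.3 in controls (log2 change 3.41, SE 0.19, adjusted p = 1.1e-05). Wfdc21, a related whey acidic protein, had 144, 88.3 and 115 FPKM in mutants, against 3.47, 4.24 and 11.8 in controls (log2 change 4.10, SE 0.37). Stfa2, an inhibitor of cysteine proteases, had 1006, 616 and 836 FPKM in mutants, against 37.7, 29.1 and 101 in controls (log2 change 4.03, SE 0.41). The mutants were above the controls throughout, and control replicate 3 was the highest control in each of these 3. The Stfa, BC100530 and Serpina3 genes belong to families of near-identical copies, and the treatment of shared reads is not given in the sources used here. Values of single members are therefore uncertain. The part of neutrophil transcripts, whose sums are given above, in the levels of antiprotease, acute phase, eicosanoid and Fc receptor genes was not tested. Nor was it tested for Il1r2 and Cxcr2.

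Among acute phase and antimicrobial genes 14 of 15 rose and 0 fell (median 2.58). Lrg1, a glycoprotein of inflamed vessels and neutrophils, had 170.3, 107 and 139 FPKM in mutants, against 9.81, 6.53 and 10.1 in controls (log2 change 3.83, SE 0.19, adjusted p = 8.6e-06). Hp, haptoglobin, had 2532, 1799 and 2155 FPKM in mutants, against 288, 283 and 407 in controls (log2 change 2.73, SE 0.17). Ngp, a neutrophil granule protein, had 829.5, 374 and 604 FPKM in mutants, against 39.5, 27.1 and 101 in controls (log2 change 3.56, SE 0.46). Each of the 3 had all mutants above all controls. Orm1, the plasma protein orosomucoid, was near 0 in controls (6.40, 5.03 and 5.78 FPKM in mutants, against 0.106, 0.122 and 0 in controls, log2 change 2.64, SE 0.11), whereas the liver fibrinogen genes Fga, Fgb and Fgg remained too low for a test in both groups. The iron handling group was more mixed, 10 of 17 higher and 2 lower (7 higher and 3 lower at equal total FPKM). Steap4, a metalloreductase, rose most (72.1, 33.5 and 53.6 FPKM in mutants, against 3.64, 3.54 and 4.18 in controls, log2 change 3.43, SE 0.23, adjusted p = 2.4e-05), the ferritin chain Fth1 rose (log2 change 0.80, SE 0.10), Heph, an iron oxidase, fell (log2 change -0.59, SE 0.12), and Hmox1, which breaks down haem, did not pass (log2 change 0.20, SE 0.0758).

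All tested complement genes were higher, 21 of 21 (median 1.30, and 20 of 21 at equal total FPKM). They covered the recognition, amplification and receptor steps. C4b, of the classical pathway, had 63.1, 55.5 and 58.8 FPKM in mutants, against 6.36, 6.72 and 8.54 in controls (log2 change 2.88, SE 0.10, adjusted p = 2.8e-06). Cfb, of the alternative pathway, had 60.8, 44.6 and 50.5 FPKM in mutants, against 5.37, 3.46 and 4.57 in controls (log2 change 3.28, SE 0.15). C3, on which both converge, had 207, 172 and 186 FPKM in mutants, against 38, 41.7 and 74.5 in controls (log2 change 1.92, SE 0.22). The proteases C1ra (log2 change 2.00, SE 0.11) and C1s1 (log2 change 1.62, SE 0.0726) and the anaphylatoxin receptor C5ar1 (31.7, 25.8 and 26.7 FPKM in mutants, against 7.23, 5.37 and 7.73 in controls, log2 change 1.91, SE 0.13) were higher as well. No control library reached a mutant library in any of the 21, a pattern held by 32.2% of all tested genes. Toll-like receptor genes were higher in 9 of 15 and lower in 0 (8 higher and 1 lower at equal total FPKM). Their called share was 60.0% against 55.6% over all tested genes. In front were the lipopolysaccharide co-receptor Cd14 (55.6, 51.8 and 52.6 FPKM in mutants, against 14.1, 11.2 and 13.9 in controls, log2 change 1.95, SE 0.0863) and the bacterial RNA sensor Tlr13 (17.1, 10.5 and 13.5 FPKM in mutants, against 3.23, 3.73 and 4.85 in controls, log2 change 1.57, SE 0.18). The virus sensors Tlr3 (log2 change 0.018, SE 0.0761) and Tlr7 (log2 change -0.17, SE 0.20) did not pass.

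Most tested genes of eicosanoid synthesis and breakdown were higher. Alox5ap, which presents arachidonic acid to 5-lipoxygenase, had 222, 157 and 193 FPKM in mutants, against 29.3, 29.2 and 49.5 in controls (log2 change 2.40, SE 0.21, adjusted p = 6.7e-05). Alox5, the lipoxygenase itself, had 11.2, 7.07 and 9.81 FPKM in mutants, against 2.33, 1.53 and 1.89 in controls (log2 change 1.82, SE 0.16). Alox15, of the lipoxin branch, had 7.15, 2.88 and 4.61 FPKM in mutants, against 0.790, 0.608 and 0.651 in controls (log2 change 1.74, SE 0.24). In all 3 the groups were apart. Of 18 tested eicosanoid genes 14 rose and 0 fell (median 0.78), while Lta4h, which makes leukotriene B4, did not pass (log2 change 0.093, SE 0.0528). Fc receptors and paired receptors rose in 11 of 15 cases. Trem1, an amplifier of neutrophil responses, had 16.3, 12.4 and 13.7 FPKM in mutants, against 1.83, 1.74 and 3.20 in controls (log2 change 2.24, SE 0.17). Lilr4b, a paired receptor, had 14.1, 8.09 and 10.8 FPKM in mutants, against 1.75, 0.951 and 3.00 in controls (log2 change 2.08, SE 0.27). Fcgr3, a low-affinity receptor for immunoglobulin G, had 111, 83.1 and 93.3 FPKM in mutants, against 25.7, 19.6 and 25.2 in controls (log2 change 1.98, SE 0.13). Mutants and controls did not overlap for these. Myeloid lectin receptors rose in 7 of 12 cases and fell in 0, a called share of 58.3% against 55.6% over all tested genes. In front was Clec4d (20.6, 14.7 and 20.1 FPKM in mutants, against 2.59, 1.91 and 4.75 in controls, log2 change 2.30, SE 0.24), which binds mycobacterial glycolipids.

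Most tested markers of alveolar and of interstitial macrophages were higher, while monocyte genes split. Alveolar macrophage markers summed to 1505, 934 and 1224 FPKM in mutant lungs and 422, 295 and 373 FPKM in control lungs. Of 17 tested, 12 passed upward and none downward (10 higher and 0 lower at equal total FPKM). Chil3, given above, made up 866, 395 and 641 FPKM of these sums in the mutants and 12.8, 5.46 and 13.9 FPKM in the controls. Marco, a scavenger receptor of alveolar macrophages, had 10.7, 9.76 and 8.27 FPKM in mutants, against 2.46, 3.89 and 7.12 in controls (log2 change 1.03, SE 0.27). Mcemp1, a mast cell and myeloid membrane protein, had 45.7, 29.5 and 40.1 FPKM in mutants, against 10.2, 9.28 and 14.2 in controls (log2 change 1.69, SE 0.18), and Siglecf (log2 change 0.41, SE 0.18) and Itgax (log2 change -0.28, SE 0.21) did not pass. Of interstitial macrophage markers 11 of 15 rose and 0 fell (11 higher and 1 lower at equal total FPKM). Apoe, a lipid carrier protein, had 1278, 1173 and 1183 FPKM in mutants, against 328, 274 and 368 in controls (log2 change 1.91, SE 0.11, adjusted p = 1.4e-05). Lyve1, a hyaluronan receptor of these cells and of lymphatic vessels, had 153, 341 and 226 FPKM in mutants, against 78.2, 74.0 and 122 in controls (log2 change 1.34, SE 0.29). Both were above the controls in every mutant library, while Csf1r (log2 change 0.080, SE 0.15), Cx3cr1 (log2 change 0.34, SE 0.13) and Stab1 (log2 change -0.15, SE 0.0987), also macrophage genes, did not pass. Monocyte markers, of which several are shared with other myeloid cells, rose in 4 and fell in 5 of 11 (3 higher and 6 lower at equal total FPKM). Treml4 (1.60, 0.858 and 1.54 FPKM in mutants, against 6.20, 7.97 and 16.8 in controls, log2 change -2.18, SE 0.31) and Cd300e (0.311, 0.236 and 0.424 FPKM in mutants, against 1.37, 2.12 and 3.47 in controls, log2 change -1.28, SE 0.21), which mark patrolling monocytes, were among the falls. Lysosomal enzymes rose in 12 of 18 cases (8 higher and 1 lower at equal total FPKM). Their called share was 66.7% against 55.6% over all tested genes. In front were Ctsh, a protease that also matures surfactant proteins (549, 497 and 535 FPKM in mutants, against 181, 149.7 and 154 in controls, log2 change 1.7, SE 0.0834), and Npc2, a cholesterol carrier (612, 601 and 604 FPKM in mutants, against 226, 222 and 275 in controls, log2 change 1.33, SE 0.0878).

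Platelet genes rose in every tested member, 15 of 15 (median 1.51), and red cell genes fell in 8 of 10. Gp9, a part of the von Willebrand factor receptor on platelets, had 27.0, 28.3 and 25.6 FPKM in mutants, against 2.65, 6.09 and 4.39 in controls (log2 change 2.43, SE 0.21, adjusted p = 6.2e-05). Itga2b, the fibrinogen receptor chain, had 12.7, 10.2 and 11.5 FPKM in mutants, against 1.62, 2.36 and 3.01 in controls (log2 change 1.93, SE 0.16). In both genes every mutant library was above every control library. Slc4a1, the anion exchanger of red cells, had 3.16, 1.00 and 2.39 FPKM in mutants, against 13.5, 12.0 and 21.9 in controls (log2 change -2.42, SE 0.29). Alas2, the first enzyme of haem synthesis in red cells, had 66.0, 23.4 and 45.2 FPKM in mutants, against 157, 147 and 142 in controls (log2 change -1.82, SE 0.31). Hbb-b1, a β-globin gene with near-identical neighbours, had 5935, 2210.5 and 4093 FPKM in mutants, against 17771, 16231 and 14487 in controls (log2 change -2.09, SE 0.33). In these 3 genes mutant replicate 2 was the lowest library. The blood left in each lung is not recorded in the labels.

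Antigen presentation and lymphocyte genes were lower. Among dendritic cell and class II genes 9 of 12 fell and 2 rose (median -0.97). Cd74, the chaperone of class II molecules, had 42.0, 28.6 and 40.3 FPKM in mutants, against 184, 190.3 and 152 in controls (log2 change -2.23, SE 0.15, adjusted p = 2.2e-05). H2-Aa, a class II chain, had 32.7, 19.6 and 27.6 FPKM in mutants, against 106, 115 and 103 in controls (log2 change -2.0, SE 0.16). The mutant libraries were all below the controls for both. Clec9a, a receptor of cross-presenting dendritic cells, went the other way (18.6, 20.5 and 18.7 FPKM in mutants, against 10.4, 11.1 and 11.3 in controls, log2 change 0.76, SE 0.0639). B cell markers fell in 7 of 9 and rose in 0, with Spib, a B cell and plasmacytoid factor, at 0.417, 0.291 and 0.457 FPKM in mutants, against 2.36, 3.79 and 4.45 in controls (log2 change -1.68, SE 0.18). T and NK markers fell in 6 of 8. Tcf7, a factor of naive T cells and of the innate lymphoid lineage, had 8.91, 9.34 and 9.01 FPKM in mutants, against 19.3, 20.9 and 21.0 in controls (log2 change -1.09, SE 0.0594). Cd2, an adhesion molecule of T and NK cells, had 2.05, 2.67 and 1.59 FPKM in mutants, against 3.70, 4.47 and 7.07 in controls (log2 change -0.95, SE 0.21). Markers of mast cells, type 2 lymphoid cells, basophils and eosinophils fell in 6 of 9 and rose in 1 (0 higher and 7 lower at equal total FPKM). Those that fell included the mast cell proteases Mcpt4 (2.30, 1.25 and 2.67 FPKM in mutants, against 7.75, 9.09 and 13.2 in controls, log2 change -1.84, SE 0.22) and Cma1 (3.57, 2.00 and 1.97 FPKM in mutants, against 6.36, 6.39 and 9.90 in controls, log2 change -1.29, SE 0.21), while Cd8a, Ncr1, Eomes and Ifng were below the level for a test.

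Few interferon genes were called. Of 22 tested targets of interferon-gamma, 0 rose and 2 fell, a called share of 9.09% against 55.6% over all genes (median 0.10, and -0.052 at equal total FPKM). In fits without 1 library the number higher was 0 to 5 and the number lower was 2 to 4, the most higher without control replicate 2. Socs1, a feedback inhibitor of cytokine receptors, was lower (6.48, 5.74 and 6.40 FPKM in mutants, against 11.0, 15.3 and 15.5 in controls, log2 change -1.04, SE 0.13), and Irf1 (log2 change 0.41, SE 0.18), Psmb8 (log2 change 0.19, SE 0.16) and Irgm1 (log2 change 0.11, SE 0.24) did not pass. Of 20 genes of the type I interferon response, 1 rose and 6 fell (median -0.27, 1 higher and 9 lower at equal total FPKM). Rsad2, the antiviral protein viperin, had 2.57, 1.05 and 1.85 FPKM in mutants, against 7.84, 11.2 and 15.0 in controls (log2 change -2.12, SE 0.25). Ifi27l2a had 9.07, 10.6 and 7.25 FPKM in mutants, against 18.1, 33.5 and 25.2 in controls (log2 change -1.39, SE 0.21). Isg15, a ubiquitin-like protein, had 13.2, 9.13 and 11.0 FPKM in mutants, against 16.0, 32.0 and 29.1 in controls (log2 change -1.10, SE 0.24). Controls were above mutants for each. Control replicate 1 mattered to this list, since 13 members fell without it.

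**Figure D3:**
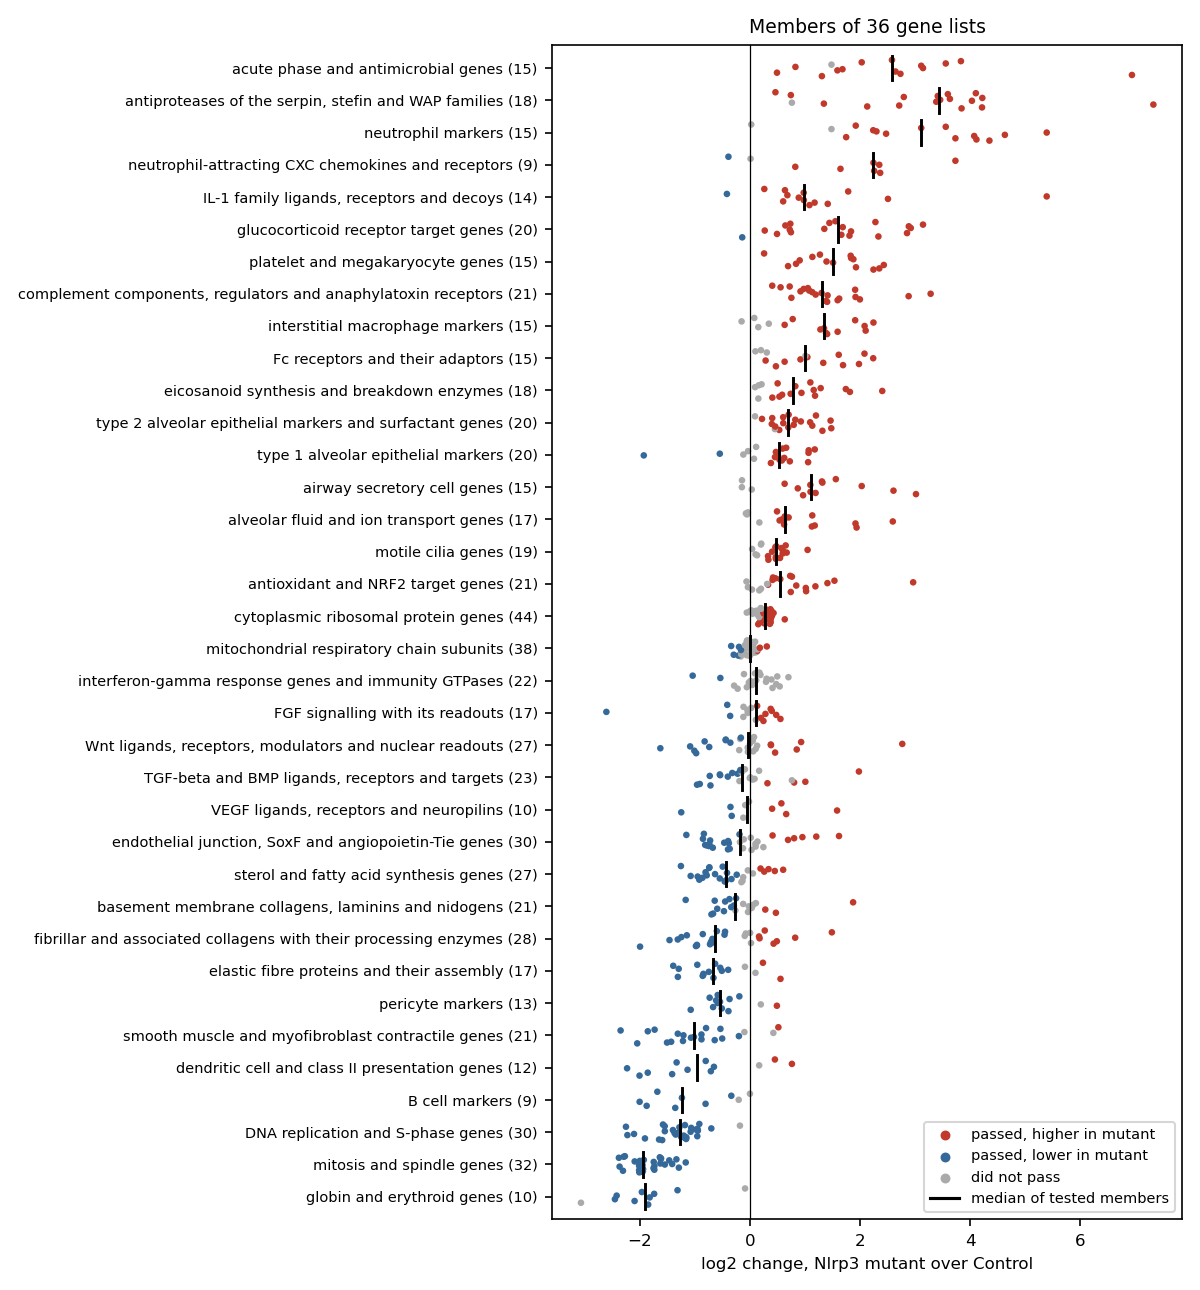
Each point is a tested member of 1 of 36 gene lists (number of tested members in parentheses), placed by its log2 change (Nlrp3 mutant over Control) and coloured by its call, and each vertical bar is the list's median. Antiproteases have the highest median (3.43), mitosis genes have the lowest (-1.94), and respiratory chain subunits and interferon-gamma targets lie about 0.

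Epithelial transcripts were higher across alveolar, airway and mesothelial types. Among type 2 alveolar genes, which make surfactant, 18 of 20 rose and 0 fell (median 0.70, 15 higher and 0 lower at equal total FPKM). Sftpd, surfactant protein D, had 1160.4, 1349 and 1220.1 FPKM in mutants, against 511, 409 and 421 in controls (log2 change 1.48, SE 0.10, adjusted p = 2.9e-05). S100g, a calcium-binding protein, had 403, 419.9 and 432 FPKM in mutants, against 164, 138 and 153 in controls (log2 change 1.46, SE 0.0728). Slc34a2, a phosphate carrier, had 1115, 1089 and 1077 FPKM in mutants, against 523, 478 and 495 in controls (log2 change 1.13, SE 0.0676). Sftpc, the most abundant of them, did not pass (27294, 20669 and 23255 FPKM in mutants, against 17880, 16589 and 17231 in controls, log2 change 0.45, SE 0.22, adjusted p = 0.117), although all mutants were above all controls. Of type 1 genes, which belong to the flat cells of gas exchange, 14 of 20 rose and 2 fell (median 0.53). Hopx, a homeodomain protein, had 755, 860.1 and 738 FPKM in mutants, against 349, 378 and 403 in controls (log2 change 1.06, SE 0.0861). Gprc5a, an orphan receptor, had 463, 544 and 495 FPKM in mutants, against 228, 228 and 260.4 in controls (log2 change 1.06, SE 0.0836). Against the list, Igfbp2, an IGF-binding protein of maturing type 1 cells, had 56.1, 31.3 and 45 FPKM in mutants, against 192, 186 and 128 in controls (log2 change -1.93, SE 0.22, adjusted p = 2.4e-04), and Sema3e, a guidance factor, was lower (log2 change -0.55, SE 0.0759). Vegfa (log2 change -0.12, SE 0.0619) and Cav1 (log2 change 0.074, SE 0.0695) did not pass.

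Genes of injured or transitional epithelium rose in 12 of 14. This list shares Krt19 with the mesothelial markers and Cdkn1a with the genes that arrest the cycle. Which cells of the whole lung held these transcripts was not tested. Cldn4, a tight junction protein, had 37.1, 59.6 and 47.0 FPKM in mutants, against 10.0, 10.8 and 13.1 in controls (log2 change 1.97, SE 0.16, adjusted p = 5.6e-05). Nupr1, a stress-induced chromatin protein, had 301, 286 and 281 FPKM in mutants, against 78.8, 81.1 and 119 in controls (log2 change 1.65, SE 0.14). Lgals3, galectin-3, had 102, 96.3 and 95.9 FPKM in mutants, against 46.4, 40.0 and 49.7 in controls (log2 change 1.10, SE 0.0808). Among airway secretory genes 12 of 15 rose and 0 fell (median 1.10). Scgb3a1, a secretoglobin of goblet and club cells, had 1038, 811 and 923 FPKM in mutants, against 81.0, 135 and 131 in controls (log2 change 3.01, SE 0.19, adjusted p = 2.0e-05). Bpifa1, a surfactant-like defence protein of large airways, had 11.1, 24.9 and 18.9 FPKM in mutants, against 1.57, 2.19 and 2.36 in controls (log2 change 2.61, SE 0.25). The mucin regulator Agr2 did not pass (log2 change -0.15, SE 0.27). Motile cilia genes rose in 14 of 19 with small changes (median 0.47) and in 10 at equal total FPKM. All 9 tested mesothelial markers rose, among them Msln, mesothelin (154, 134 and 140.5 FPKM in mutants, against 61.3, 61.8 and 87.9 in controls, log2 change 1.03, SE 0.14). In each of these epithelial and mesothelial genes given with values by library, every mutant was above every control.

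Transcription factors of the lung epithelium mostly rose, with Etv4 the main exception. Nkx2-1, which specifies lung epithelium, had 107, 128 and 116 FPKM in mutants, against 95.9, 93.8 and 91.0 in controls (log2 change 0.31, SE 0.0703), a rise that did not pass at equal total FPKM. Cebpa, a factor of type 2 cell maturation, had 121, 113 and 118 FPKM in mutants, against 57.0, 62.0 and 65.7 in controls (log2 change 0.92, SE 0.0639). Elf3 (16.9, 15.8 and 14.5 FPKM in mutants, against 6.55, 7.25 and 8.25 in controls, log2 change 1.01, SE 0.0912) and Ehf (log2 change 0.84, SE 0.12), of the ETS family, were higher. Etv4, an ETS factor induced by FGF signals at the growing lung tip, had 0.602, 0.354 and 0.347 FPKM in mutants, against 6.77, 7.47 and 9.01 in controls (log2 change -2.61, SE 0.12, adjusted p = 6.9e-06), the largest fall of the list and opposite to its relative Etv5 (65.0, 68.6 and 65.2 FPKM in mutants, against 49.2, 49.8 and 51.1 in controls, log2 change 0.40, SE 0.0476). In all, 12 of 20 rose and 2 fell, with 8 higher at equal total FPKM. Foxp1 (log2 change 0.0083, SE 0.0911), Id2 (log2 change 0.11, SE 0.0608) and Gata6 (log2 change 0.0025, SE 0.11) did not pass.

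Channels and pumps that clear fluid from the airspace were mostly higher, 13 of 17 upward and 0 downward (median 0.63, 13 higher and 2 lower at equal total FPKM). Scnn1a, a subunit of the sodium channel ENaC, had 127, 145 and 133 FPKM in mutants, against 37.6, 30.5 and 35.8 in controls (log2 change 1.94, SE 0.0855, adjusted p = 5.4e-06). Atp1b1, a subunit of the sodium pump, had 330.4, 391 and 356 FPKM in mutants, against 89.0, 92.0 and 102 in controls (log2 change 1.92, SE 0.0798, adjusted p = 5.0e-06). Aqp3, a water and glycerol channel, had 14.7, 8.48 and 11.5 FPKM in mutants, against 1.54, 0.778 and 0.880 in controls (log2 change 2.59, SE 0.20). In all 3 every mutant stood above every control. The other ENaC subunits Scnn1b (log2 change 1.12, SE 0.0690) and Scnn1g (log2 change 1.18, SE 0.0809) rose as well, whereas the endothelial water channel Aqp1 (log2 change 0.17, SE 0.0697) and the chloride channel Ano1 (log2 change -0.037, SE 0.0543) did not pass.

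Collagen and elastic fibre genes, measured here as transcripts of the whole lung, were mostly lower, with some members higher. Of 28 tested genes of fibrillar and associated collagens and their enzymes 17 fell and 7 rose (median -0.63), and 19 fell and 4 rose at equal total FPKM. Col1a1, a chain of type I collagen, had 54.4, 33.1 and 42.9 FPKM in mutants, against 175, 196 and 150.1 in controls (log2 change -1.99, SE 0.17, adjusted p = 6.2e-05). Col15a1, a collagen linked to basement membranes, had 3.69, 1.94 and 3.08 FPKM in mutants, against 9.42, 10.5 and 8.74 in controls (log2 change -1.46, SE 0.16). Serpinh1, the collagen chaperone HSP47, had 360.4, 290.4 and 335 FPKM in mutants, against 753, 742 and 682 in controls (log2 change -1.15, SE 0.0910). The controls were higher in every library. Dcn, decorin, which coats collagen fibrils, went the other way at 81.1, 80.2 and 80.9 FPKM in mutants, against 24.7, 30.1 and 30.0 in controls (log2 change 1.49, SE 0.0778, adjusted p = 9.9e-06), as did P4ha2, a prolyl hydroxylase (13.9, 14.8 and 14.6 FPKM in mutants, against 8.45, 7.64 and 7.14 in controls, log2 change 0.82, SE 0.0721), and Col13a1, a membrane collagen of alveolar fibroblasts (log2 change 0.49, SE 0.0652). Sparc, a collagen-binding glycoprotein, did not pass (1452 ± 77.4 FPKM in mutant lungs and 1447 ± 28.5 FPKM in control lungs, SD, n = 3 each, log2 change 0.0042, SE 0.0819).

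Most elastic fibre genes were lower, while the core protein was higher. Eln, tropoelastin, had 2718, 2793 and 2629.6 FPKM in mutants, against 1948, 1972 and 1637 in controls (log2 change 0.56, SE 0.11, adjusted p = 0.00323), above controls in all mutants. Of the 17 genes tested, 13 fell and 2 rose (1 higher and 14 lower at equal total FPKM). Ltbp2, a latent TGF-beta binding protein of microfibrils, had 51.0, 33.2 and 41.3 FPKM in mutants, against 116, 114 and 99.8 in controls (log2 change -1.39, SE 0.14). Fbn2, the fibrillin of growing tissue, had 3.26, 3.39 and 3.03 FPKM in mutants, against 9.94, 9.70 and 8.77 in controls (log2 change -1.31, SE 0.0771). Mfap5, a microfibril protein, had 11.3, 8.37 and 10.4 FPKM in mutants, against 28.7, 28.2 and 21.3 in controls (log2 change -1.29, SE 0.14). Fbln5, which guides elastin onto microfibrils, was lower (54.9, 47.0 and 50.0 FPKM in mutants, against 96.1, 96.6 and 82.7 in controls, log2 change -0.84, SE 0.0814). None of the 3 mutants reached a control for these 4 genes. The lysyl oxidases, which cross-link elastin and collagen, split likewise. Of 5 tested, 2 rose, Lox and Loxl4, and 3 fell (1 higher and 3 lower at equal total FPKM). Lox had 169, 199.8 and 177 FPKM in mutants, against 46.6, 48.7 and 41.8 in controls (log2 change 1.97, SE 0.0807, adjusted p = 5.0e-06), while Loxl1 (52.5, 44.9 and 51.3 FPKM in mutants, against 82.0, 85.9 and 84.4 in controls, log2 change -0.75, SE 0.0664), Loxl2 (log2 change -0.98, SE 0.0496) and Loxl3 (log2 change -0.74, SE 0.0781) were lower.

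**Figure D4:**
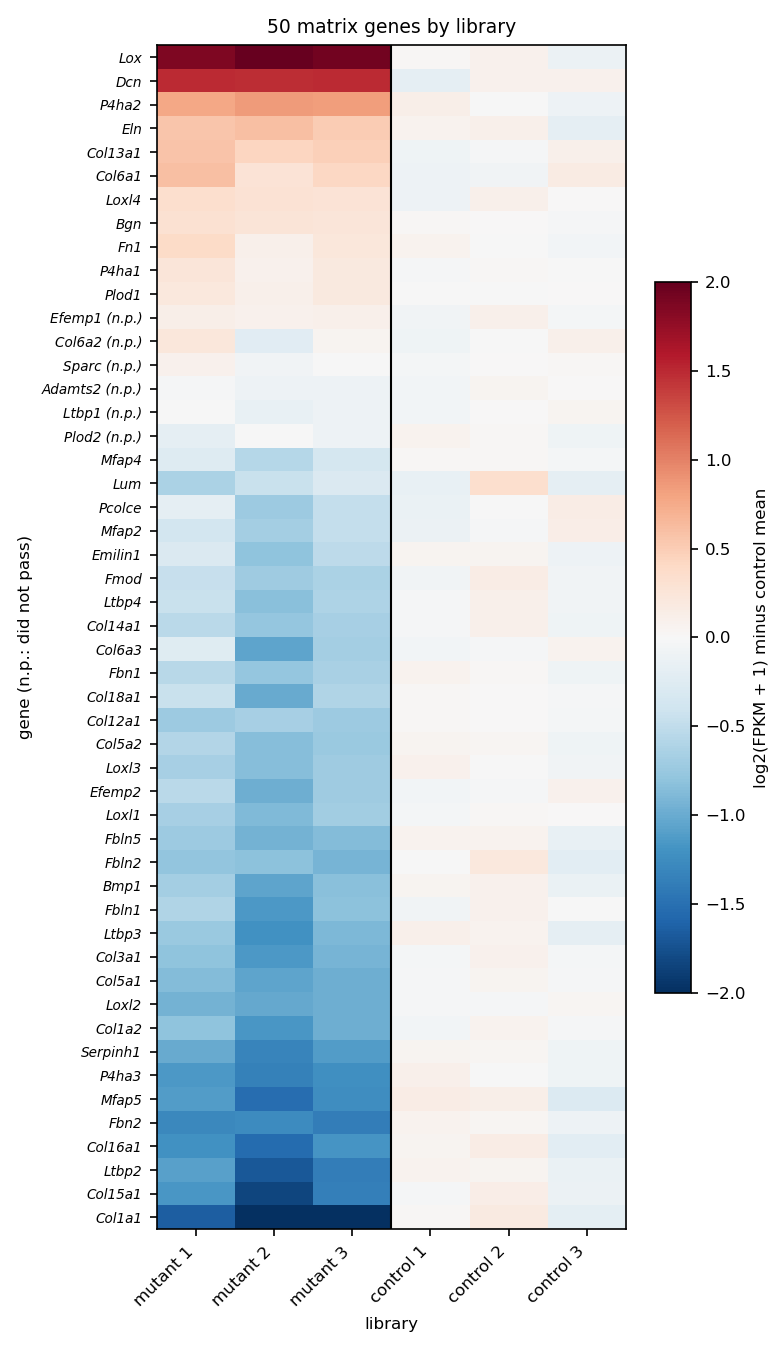
Colours give log2(FPKM + 1) minus the control mean for 50 tested genes of elastic fibres, lysyl oxidases and collagens in each library, mutants on the left of the line and controls on the right, sorted by log2 change, with the scale ending at 2 in both directions. Of the 50 genes 11 passed upward, led by Lox, Dcn and P4ha2, and 33 passed downward, ending with Col1a1.

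Basement membrane genes fell in 11 and rose in 3 of 21 cases, a called share of 66.7% against 55.6% over all tested genes. Hspg2, perlecan, had 15.3, 10.9 and 13.5 FPKM in mutants, against 34.5, 33.4 and 24.9 in controls (log2 change -1.17, SE 0.15), and Lamc3, a laminin chain, rose (7.82, 8.66 and 7.33 FPKM in mutants, against 1.93, 1.32 and 1.12 in controls, log2 change 1.87, SE 0.13, adjusted p = 2.6e-05). The collagen IV chains Col4a1 (log2 change -0.70, SE 0.15) and Col4a2 (log2 change -0.67, SE 0.14) were lower, and Col4a3, a chain made by type 1 cells, was higher (log2 change 0.47, SE 0.0527). Matricellular proteins, which tune adhesion, fell in 10 of 19 and rose in 5 (3 higher and 11 lower at equal total FPKM). Tnc, tenascin-C, had 33.3, 20.6 and 27.1 FPKM in mutants, against 142, 142 and 143 in controls (log2 change -2.38, SE 0.14, adjusted p = 1.7e-05), with the 3 control libraries almost equal, and Wisp1, a CCN family protein, had 6.24, 5.22 and 5.65 FPKM in mutants, against 21.1, 23.3 and 21.4 in controls (log2 change -1.78, SE 0.0764). Smoc2, a calcium-binding matrix protein, had the largest rise (38.1, 43.3 and 38.8 FPKM in mutants, against 4.03, 4.26 and 3.93 in controls, log2 change 3.02, SE 0.0680, adjusted p = 3.1e-07). Among proteases and inhibitors 8 of 19 rose and 7 fell, whereas falls outnumbered rises under the other scaling (8 higher and 11 lower at equal total FPKM). Mmp25, a neutrophil membrane protease, had 4.94, 3.15 and 4.09 FPKM in mutants, against 0.311, 0.148 and 0.452 in controls (log2 change 1.95, SE 0.15). Timp4 had 5.76, 5.71 and 4.73 FPKM in mutants, against 1.31, 1.06 and 1.32 in controls (log2 change 1.52, SE 0.10). Timp1 had 29.2, 14.9 and 21.6 FPKM in mutants, against 6.43, 7.13 and 6.68 in controls (log2 change 1.52, SE 0.20), while Mmp15, a membrane protease of epithelium and endothelium, fell (28.0, 20.4 and 24.3 FPKM in mutants, against 47.7, 46.2 and 38.8 in controls, log2 change -0.85, SE 0.12) and Mmp2 did not pass (log2 change -0.0044, SE 0.0583).

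Contractile genes of smooth muscle and of alveolar myofibroblasts, the cells that draw out the septa, were lower in 18 of 21 cases and higher in 1 (median -1.02, 17 to 18 lower when any 1 library was left out). Their summed level was 1167, 1131 and 1142 FPKM in mutant lungs and 2056, 2179.5 and 2153 FPKM in control lungs. Acta2, smooth muscle actin, had 68.6, 62.3 and 64.3 FPKM in mutants, against 264, 283 and 268 in controls (log2 change -2.05, SE 0.0568, adjusted p = 8.7e-07). Aard, an alanine- and arginine-rich protein, had 7.13, 4.96 and 5.53 FPKM in mutants, against 33.0, 34.5 and 33.6 in controls (log2 change -2.35, SE 0.11, adjusted p = 6.0e-06). Pdlim3, a Z-disc protein, had 27.9, 22.0 and 26.6 FPKM in mutants, against 89.3, 96.1 and 97.9 in controls (log2 change -1.85, SE 0.0887). P2ry14, a receptor for UDP-glucose, had 44.1, 37.1 and 38.5 FPKM in mutants, against 140.3, 131 and 132 in controls (log2 change -1.73, SE 0.0716). The groups were apart in each. Actc1, cardiac actin, rose (119, 136 and 125 FPKM in mutants, against 74.6, 98.5 and 92.9 in controls, log2 change 0.52, SE 0.10), and Hhip, a Hedgehog-binding protein of airway smooth muscle and myofibroblasts, did not pass (log2 change -0.10, SE 0.12). Heart and skeletal muscle genes, which could come from tissue beside the lung, rose in 7 of 12 and fell in 2, and they summed to 409, 403 and 383 FPKM in mutant lungs and 233, 327 and 256 FPKM in control lungs. Their part in the value of Actc1 was not tested. The heart muscle genes Tnnt2 (log2 change 1.15, SE 0.10) and Myl7 (log2 change 0.75, SE 0.14) rose, and Mb, myoglobin, fell (6.14, 3.21 and 4.24 FPKM in mutants, against 24.6, 39.8 and 12.6 in controls, log2 change -2.17, SE 0.37).

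Pericyte markers fell in 11 of 13 and rose in 1. Cspg4, the proteoglycan NG2, had 4.69, 3.26 and 4.01 FPKM in mutants, against 9.98, 10.5 and 8.00 in controls (log2 change -1.07, SE 0.13), Pdgfrb, the PDGF receptor of pericytes, had 53.9 ± 0.106 FPKM in mutant lungs and 70.9 ± 2.46 FPKM in control lungs (SD, n = 3 each, log2 change -0.39, SE 0.0472), and Kcnj8, a potassium channel, rose (log2 change 0.49, SE 0.0857). Genes of alveolar and lipid-storing fibroblasts went both ways, 13 of 23 higher and 6 lower. Beside Inmt, Lpl, lipoprotein lipase, had 107, 138 and 120.1 FPKM in mutants, against 22.1, 21.9 and 25.3 in controls (log2 change 2.34, SE 0.0994, adjusted p = 5.1e-06). Cebpd, a factor of adipose and acute phase programmes, had 203, 66.7 and 140.2 FPKM in mutants, against 22.2, 26.9 and 25.3 in controls (log2 change 2.28, SE 0.34). Slc7a10, an amino acid carrier, fell (5.84, 4.01 and 4.55 FPKM in mutants, against 13.9, 13.9 and 19.7 in controls, log2 change -1.53, SE 0.16), as did the growth factor Figf, VEGF-D (26.1, 19 and 23.6 FPKM in mutants, against 57.7, 58.1 and 50.5 in controls, log2 change -1.25, SE 0.11). Pdgfra, which marks myofibroblast and lipofibroblast precursors, did not pass (39.6, 43.2 and 39.9 FPKM in mutants, against 39.1, 37.9 and 35.3 in controls, log2 change 0.12, SE 0.0600), nor did its ligand Pdgfa (32.0 ± 1.04 FPKM in mutant lungs and 32.1 ± 5.48 FPKM in control lungs, SD, n = 3 each, log2 change 0.0099, SE 0.11).

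Among signals that guide alveolar growth, ligands, receptors and antagonists differed in direction. Of FGF genes 8 of 17 rose and 3 fell, a balance that turned under the other scaling (3 higher and 4 lower at equal total FPKM). Their called share was 64.7% against 55.6% over all tested genes, and their median was 0.11, or -0.030 at equal total FPKM. Fgf7, an epithelial growth factor made by fibroblasts, was higher (12.0, 17.7 and 13.9 FPKM in mutants, against 9.76, 8.57 and 10.2 in controls, log2 change 0.55, SE 0.13), the receptor Fgfr1 was lower (log2 change -0.36, SE 0.0594), and the feedback genes Dusp6 (log2 change -0.12, SE 0.12) and Spry1 (log2 change -0.046, SE 0.0879) did not pass. Of Wnt genes 6 of 27 rose and 10 fell (4 higher and 12 lower at equal total FPKM), a called share of 59.3% that is near the 55.6% of all tested genes. Sfrp1, a secreted Wnt antagonist, had 37.7, 32.7 and 35.8 FPKM in mutants, against 3.92, 4.59 and 4.53 in controls (log2 change 2.77, SE 0.0783, adjusted p = 9.2e-07), while the ligands Wnt11 (6.57, 7.35 and 7.62 FPKM in mutants, against 23.3, 25.5 and 23.9 in controls, log2 change -1.63, SE 0.0703), Wnt5a (26.0, 29.3 and 27.4 FPKM in mutants, against 58.6, 55.9 and 54.8 in controls, log2 change -1.01, SE 0.0592) and Wnt2 (log2 change -0.98, SE 0.11) were lower. The groups did not overlap for Sfrp1 or for these ligands. Axin2, a general readout of the pathway, did not pass (16.4 ± 1.90 FPKM in mutant lungs and 16.9 ± 0.236 FPKM in control lungs, SD, n = 3 each, log2 change -0.039, SE 0.0810), nor did Apcdd1 (log2 change 0.075, SE 0.0547).

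In the TGF-beta and BMP group 10 of 23 fell and 4 rose (3 higher and 14 lower at equal total FPKM). The called share was 60.9% against 55.6% over all tested genes. All 3 TGF-beta ligands fell, Tgfb1 (log2 change -0.72, SE 0.14), Tgfb2 (19.7, 20.5 and 20.2 FPKM in mutants, against 39.8, 41.4 and 39.2 in controls, log2 change -0.96, SE 0.0491) and Tgfb3 (20.7, 24.3 and 22.2 FPKM in mutants, against 43.1, 43.7 and 41.8 in controls, log2 change -0.91, SE 0.0654), and all 3 receptors rose, Tgfbr1 (log2 change 0.32, SE 0.0673), Tgfbr2 (150.2, 149.7 and 147 FPKM in mutants, against 91.1, 84.0 and 80.3 in controls, log2 change 0.80, SE 0.0577) and Tgfbr3 (43.8, 53.7 and 46.6 FPKM in mutants, against 22.1, 22.7 and 25.3 in controls, log2 change 1.01, SE 0.0857). The ligands were lower and the receptors higher in every mutant library, but the rise of Tgfbr1 did not pass at equal total FPKM. Fst, follistatin, an antagonist of activins, had 6.04, 6.38 and 6.29 FPKM in mutants, against 0.898, 0.906 and 0.711 in controls (log2 change 1.98, SE 0.0851, adjusted p = 5.1e-06). The targets Tgfbi (log2 change -0.19, SE 0.0837) and Id1 (log2 change 0.0087, SE 0.0597) did not pass, and Id1 fell at equal total FPKM. Of 7 PDGF genes 3 fell and 1 rose (0 higher and 3 lower at equal total FPKM), a called share of 57.1% against 55.6% over all tested genes. Pdgfrl, a receptor-like protein, was lowest (7.24, 5.97 and 6.37 FPKM in mutants, against 17.3, 16.0 and 15.7 in controls, log2 change -1.21, SE 0.0796). Of Hedgehog genes 4 of 12 fell and 3 rose (2 higher and 5 lower at equal total FPKM), a called share of 58.3% against 55.6% over all tested genes. The effector Gli3 was lower (2.95, 2.27 and 2.28 FPKM in mutants, against 5.21, 5.67 and 5.22 in controls, log2 change -0.87, SE 0.0979) and the co-receptor Gas1 higher (29.4, 24.2 and 26.6 FPKM in mutants, against 14.3, 16.0 and 15.3 in controls, log2 change 0.77, SE 0.0795). The ligand Shh (log2 change -0.18, SE 0.0715) and the receptor Ptch1 (log2 change -0.046, SE 0.0864) did not pass.

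IGF-binding proteins moved in both directions. Igfbp3, the main carrier of IGF in plasma, had 81.7, 109 and 92.9 FPKM in mutants, against 9.47, 9.06 and 14.0 in controls (log2 change 3.03, SE 0.16, adjusted p = 1.1e-05). Igfbp6 had 81.4, 129 and 104 FPKM in mutants, against 27.5, 30.3 and 48.0 in controls (log2 change 1.56, SE 0.22). Igfbp4 was lower (164, 147 and 154 FPKM in mutants, against 331, 333 and 293 in controls, log2 change -1.04, SE 0.0714), as was the ligand Igf1 (16.9, 13.7 and 15.2 FPKM in mutants, against 31.4, 27.9 and 22.2 in controls, log2 change -0.78, SE 0.13), while Igf2 was higher (55.2, 57.2 and 54.4 FPKM in mutants, against 32.2, 38.1 and 33.4 in controls, log2 change 0.67, SE 0.0692). Among imprinted genes Mest fell (128, 97.6 and 109 FPKM in mutants, against 262, 232 and 186 in controls, log2 change -1.01, SE 0.14), and H19 did not pass (log2 change -0.20, SE 0.21). The group of 26 counted 12 rises and 8 falls, and its median was 0.14, or -0.0090 at equal total FPKM, where 11 rose and 11 fell. In the retinoic acid group 4 of 13 rose and 4 fell, a called share of 61.5% against 55.6% over all tested genes. Crabp1, a cellular retinoic acid binding protein, had 0.236, 0.118 and 0.315 FPKM in mutants, against 5.78, 5.96 and 3.97 in controls (log2 change -2.34, SE 0.15, adjusted p = 1.9e-05), under 1 FPKM in all mutants, and Aldh1a1, which makes retinoic acid, had 157, 224 and 185 FPKM in mutants, against 74.4, 77.8 and 96.6 in controls (log2 change 1.17, SE 0.14), higher in all mutants.

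Of 30 endothelial transcripts 15 fell and 6 rose (median -0.18), while the pan-endothelial marker Pecam1 did not pass (258 ± 2.78 FPKM in mutant lungs and 253 ± 10.0 FPKM in control lungs, SD, n = 3 each, log2 change 0.029, SE 0.0538). Gja4, an arterial connexin, had 44.9, 33.3 and 42.3 FPKM in mutants, against 92.3, 96.7 and 81.6 in controls (log2 change -1.15, SE 0.11, adjusted p = 1.2e-04). Emcn, endomucin, had 30.2, 16.9 and 24.5 FPKM in mutants, against 49.9, 42.1 and 37.1 in controls (log2 change -0.85, SE 0.19), and the 3 SoxF factors Sox7 (log2 change -0.78, SE 0.0863), Sox17 (log2 change -0.81, SE 0.0779) and Sox18 (log2 change -0.73, SE 0.0737) were lower. Among the members that rose were Ackr1, a chemokine-presenting receptor of venules (3.97, 1.75 and 2.90 FPKM in mutants, against 0.247, 0.284 and 0.153 in controls, log2 change 1.62, SE 0.20), Selp, P-selectin (2.43, 1.30 and 1.5 FPKM in mutants, against 0.197, 0.166 and 0.155 in controls, log2 change 1.20, SE 0.16), and Icam1 (216, 199.7 and 208 FPKM in mutants, against 115, 98.2 and 108 in controls, log2 change 0.95, SE 0.0683). The groups were apart for Gja4, Emcn, Ackr1, Selp and Icam1. Of capillary genes, Aplnr, the apelin receptor of general capillary cells, fell most (36.1, 25.1 and 32.3 FPKM in mutants, against 110, 98.0 and 85.8 in controls, log2 change -1.63, SE 0.14, adjusted p = 5.7e-05). Its ligand Apln was also lower (32.6, 24.0 and 26.9 FPKM in mutants, against 50.3, 50.8 and 48.7 in controls, log2 change -0.83, SE 0.10). Of the group 9 of 20 rose and 6 fell, a balance that turned under the other scaling (7 higher and 9 lower at equal total FPKM). In the VEGF group Pgf, placental growth factor, was higher (22.2, 16.8 and 22.0 FPKM in mutants, against 6.04, 5.55 and 6.68 in controls, log2 change 1.58, SE 0.11), the receptor Kdr lower (62.9, 61.9 and 59.1 FPKM in mutants, against 80.1, 78.4 and 77.3 in controls, log2 change -0.35, SE 0.0477) and Vegfa not passing. In this group 4 of 10 rose and 3 fell, whereas falls outnumbered rises under the other scaling (4 higher and 5 lower at equal total FPKM). Lymphatic markers rose in 5 of 7 (5 higher and 1 lower at equal total FPKM), among them Mmrn1 (17.6, 21.4 and 17.6 FPKM in mutants, against 7.42, 6.15 and 5.62 in controls, log2 change 1.43, SE 0.11). Lyve1, already given, is shared with macrophages, and Pdpn was also counted among type 1 alveolar genes. Prox1, another marker of the list, was too low for a test.

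**Figure D5:**
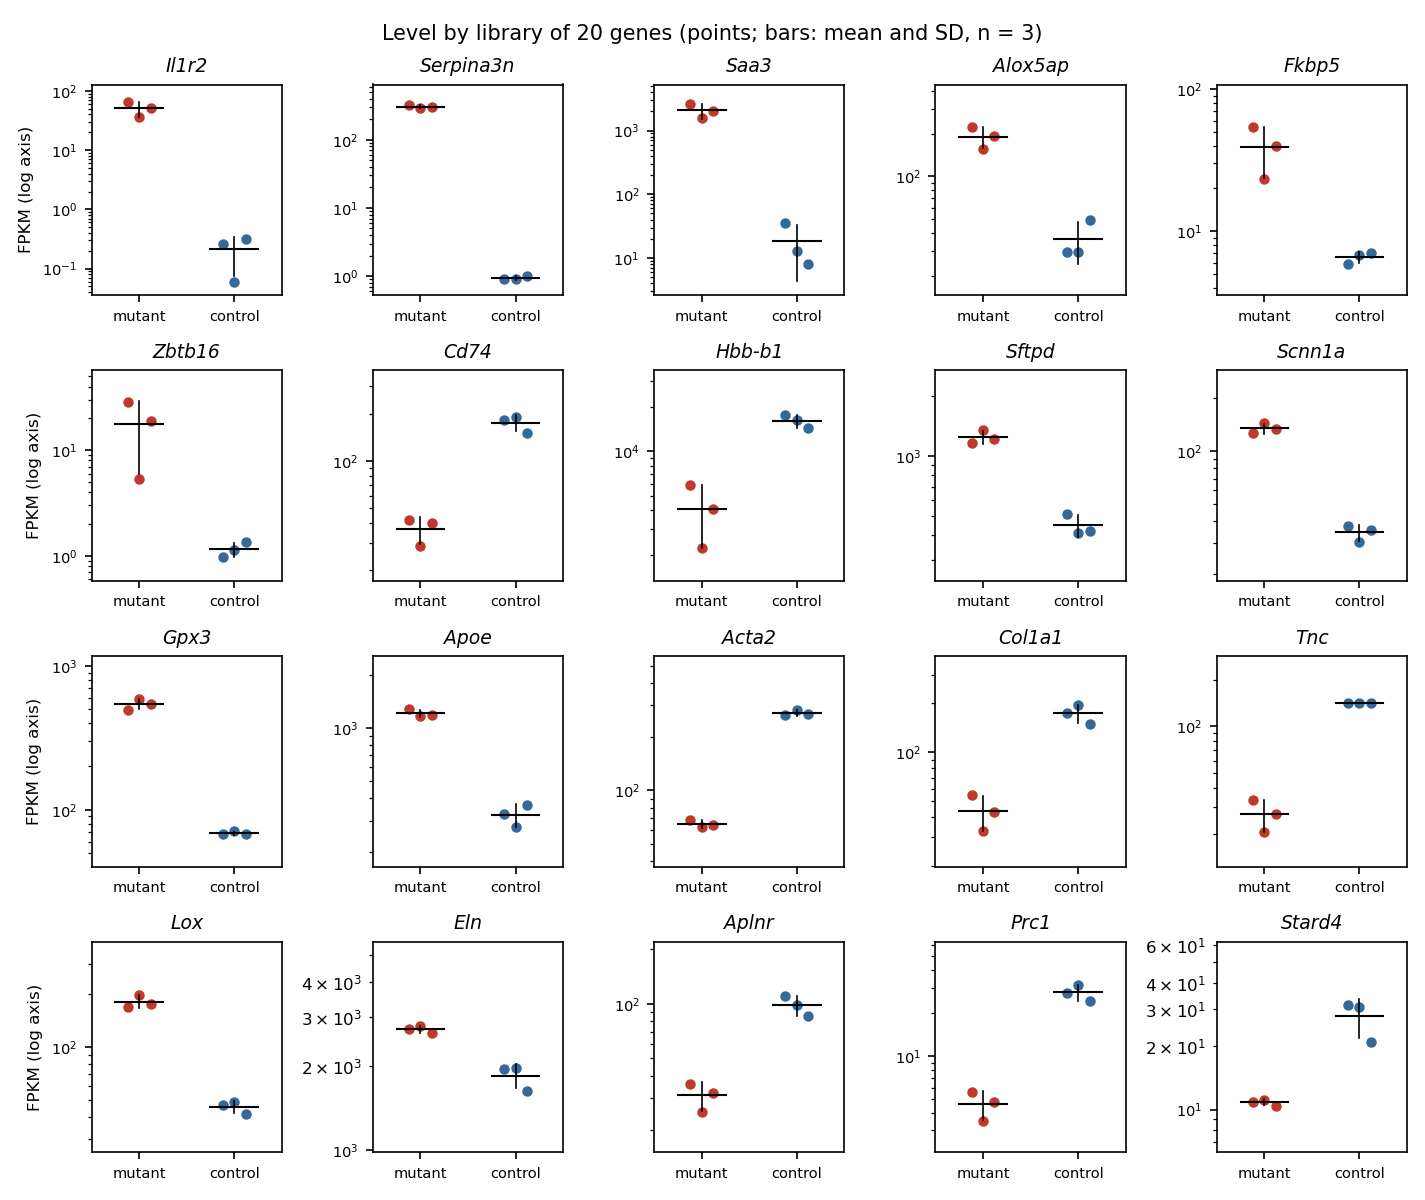
FPKM (log axis) of 20 genes by library, with the 3 mutant libraries on the left of each panel and the 3 control libraries on the right, each bar giving the mean and SD (n = 3). In all 20 panels the groups do not overlap, and Zbtb16 has the widest mutant spread, with replicate 2 the lowest mutant.

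Genes of cell division were lower with 1 exception. All 32 mitosis and spindle genes fell (median -1.94), as did 29 of 30 DNA replication and S-phase genes (median -1.26), where the background share of lower genes was 27.6%. The summed level of the mitosis genes was 126, 85.4 and 110.2 FPKM in mutant lungs and 492, 557 and 481 FPKM in control lungs. Prc1, which bundles the central spindle, had 5.56, 3.51 and 4.77 FPKM in mutants, against 27.8, 31.7 and 24.5 in controls (log2 change -2.38, SE 0.15, adjusted p = 1.8e-05). Top2a, the topoisomerase of mitotic chromosomes, had 5.74, 3.75 and 5.00 FPKM in mutants, against 28.4, 32.3 and 25.9 in controls (log2 change -2.37, SE 0.13). Ube2c, which helps to degrade cyclins, had 8.25, 4.73 and 9.93 FPKM in mutants, against 36, 45.3 and 38.7 in controls (log2 change -2.29, SE 0.22). Mutant replicate 2 was the lowest library in each. Uhrf1, which maintains DNA methylation at the fork, had 4.33, 2.58 and 3.89 FPKM in mutants, against 18.1, 21.9 and 22.0 in controls (log2 change -2.25, SE 0.15). Mcm5, of the replicative helicase, had 6.14, 3.25 and 4.71 FPKM in mutants, against 20.8, 20.6 and 18.4 in controls (log2 change -1.91, SE 0.17), and the factor E2f2 was the exception (log2 change -0.18, SE 0.15). Red cell precursors and lymphoid cells also divide, and their markers were lower as given above, but their part in these values was not tested. Of genes that arrest the cycle 11 of 20 rose and 2 fell, but the counts were nearly even under the other scaling (7 higher and 6 lower at equal total FPKM). Their called share was 65.0% against 55.6% over all tested genes. Cdkn1a, p21, had 125, 73.6 and 96.5 FPKM in mutants, against 37.4, 35.8 and 39.9 in controls (log2 change 1.33, SE 0.17). Cdkn2b, p15, had 70.0, 78.5 and 74.8 FPKM in mutants, against 32.3, 24.4 and 30.8 in controls (log2 change 1.33, SE 0.10). Cdkn2c, p18, had 12.5, 11.1 and 10.7 FPKM in mutants, against 52.9, 65.7 and 52.9 in controls (log2 change -2.22, SE 0.0963, adjusted p = 5.1e-06). All 3 were without overlap.

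Many mitotic genes are switched by the DREAM and MuvB complexes through 2 short promoter elements, the CCAAT box and the cell cycle homology region TTTGAA. A trio of division genes that act together is shown because their promoters hold both, namely the mitotic kinase Cdk1 (6.23, 4.22 and 5.17 FPKM in mutants, against 23.7, 25.7 and 22.0 in controls, log2 change -2.01, SE 0.12), its cyclin partner Ccnb2 (7.29, 4.70 and 6.33 FPKM in mutants, against 26.6, 26.3 and 25.1 in controls, log2 change -1.94, SE 0.13) and the activator of the anaphase ligase Cdc20 (6.36, 5.40 and 5.63 FPKM in mutants, against 28.0, 28.9 and 22.7 in controls, log2 change -2.01, SE 0.10). The 250 bases before each RefSeq start in the table for GRCm38.p6 are printed 5′ to 3′ along the gene, with CCAAT or its reverse complement ATTGG and TTTGAA or its reverse complement TTCAAA in capitals. Cdk1 lies at chr10:69352913-69353162 on the minus strand, Ccnb2 at chr9:70421555-70421804 on the minus strand and Cdc20 at chr4:118437344-118437593 on the minus strand.
Cdk1: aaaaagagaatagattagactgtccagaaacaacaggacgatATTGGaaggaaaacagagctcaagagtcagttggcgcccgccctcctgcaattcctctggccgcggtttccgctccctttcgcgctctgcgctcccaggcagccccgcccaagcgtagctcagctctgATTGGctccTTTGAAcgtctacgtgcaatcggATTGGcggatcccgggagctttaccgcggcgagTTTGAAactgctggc
Ccnb2: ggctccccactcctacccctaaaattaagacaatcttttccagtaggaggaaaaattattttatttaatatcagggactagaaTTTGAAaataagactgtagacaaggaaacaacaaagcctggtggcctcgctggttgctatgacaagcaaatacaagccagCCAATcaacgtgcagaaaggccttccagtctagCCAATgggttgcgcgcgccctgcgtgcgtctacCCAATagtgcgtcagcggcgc
Cdc20: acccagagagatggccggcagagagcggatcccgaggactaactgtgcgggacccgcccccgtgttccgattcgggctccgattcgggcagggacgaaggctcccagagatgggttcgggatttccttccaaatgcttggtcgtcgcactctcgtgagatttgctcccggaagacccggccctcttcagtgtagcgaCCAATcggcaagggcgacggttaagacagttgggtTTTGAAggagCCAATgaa
The start of the nearest CCAAT box lies 48 bases before the start of Cdk1 on the opposite strand, 21 bases before that of Ccnb2 and 8 bases before that of Cdc20. The nearest TTTGAA lies 15 bases before the start of Cdk1, 167 bases before that of Ccnb2 and 18 bases before that of Cdc20. In Ccnb2 it is thus farther from the start than every CCAAT box. Whether any of these copies is used was not tested. Of the 26 mitosis genes with a promoter in the RefSeq table, 80.8% held CCAAT, 76.9% held TTTGAA and 69.2% held both within 250 bases before and 50 bases after the start, on either strand. Among tested genes with a promoter the shares were 42.2%, 14.1% and 6.84%, and among all promoters 41.1%, 20.2% and 8.97%. Of the 24 replication genes with a promoter 12.5% held both. Across the transcriptome 228 of 704 tested genes with both were lower (32.4%) and 184 higher, against 27.2% lower among 9592 genes without both. The 228 include the 18 mitosis genes with both, all of which were lower. The SRF element known as the CArG box was held by 3 of 16 contractile genes with a promoter (18.8%, against 1.62% of tested genes). The STAT motif TTCNNNGAA was held by 8.33% of 12 acute phase promoters against 8.47% of tested genes. The NF-κB motif searched, whose letters hold free positions, was held by 16.7% of them against 7.33%.

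Targets of the glucocorticoid receptor rose in 19 of 20 cases (median 1.61, 18 of 20 at equal total FPKM). Fkbp5, a chaperone that restrains the receptor, had 53.8, 23.4 and 40.0 FPKM in mutants, against 5.91, 6.75 and 7.00 in controls (log2 change 2.33, SE 0.25). Zbtb16, a transcription factor, had 28.6, 5.37 and 18.7 FPKM in mutants, against 0.968, 1.14 and 1.34 in controls (log2 change 2.85, SE 0.48, adjusted p = 0.00161). Hif3a, a hypoxia-inducible factor subunit, had 25.3, 11.1 and 18.3 FPKM in mutants, against 1.19, 1.30 and 1.82 in controls (log2 change 2.92, SE 0.25, adjusted p = 6.6e-05). Replicate 2 was the lowest mutant in Fkbp5, Zbtb16 and Hif3a, as in Pdk4, Tsc22d3 and Klf9 below, yet above every control. It was also the lowest mutant in the summed level of the whole list (2890, 2061 and 2501 FPKM in mutants). Pdk4, which spares glucose, had 28.1, 23.6 and 25.6 FPKM in mutants, against 2.38, 2.66 and 2.82 in controls (log2 change 2.88, SE 0.0845). Tsc22d3, the anti-inflammatory protein GILZ, had 369, 200.3 and 278 FPKM in mutants, against 73.1, 76.7 and 83.3 in controls (log2 change 1.81, SE 0.19). Klf9 had 55.9, 38.6 and 49.6 FPKM in mutants, against 13.3, 11.7 and 12.8 in controls (log2 change 1.83, SE 0.12). The receptor gene Nr3c1, the only member that was lower, had 47.5 ± 1.57 FPKM in mutant lungs and 52.4 ± 0.788 FPKM in control lungs (SD, n = 3 each, log2 change -0.14, SE 0.0476), a fall that did not pass in 5 of the 6 fits without 1 library. The list shares Lcn2 and Cebpd with acute phase programmes and Mt1 and Mt2 with metal responses. All 8 tested metallothionein and zinc transporter genes rose, with Mt2 at 46.4, 31.2 and 43.9 FPKM in mutants, against 13.5, 18.4 and 13.7 in controls (log2 change 1.35, SE 0.17) and the zinc carrier Slc39a8 at 144, 143 and 145 FPKM in mutants, against 71.0, 64.9 and 69.5 in controls (log2 change 1.07, SE 0.0513).

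Clock genes, whose levels vary with the hour of the day, differed as well, and the hour of collection is not in the labels. Per1, also a glucocorticoid target, had 34.1, 22.1 and 28.7 FPKM in mutants, against 8.31, 8.47 and 7.63 in controls (log2 change 1.66, SE 0.14). Ciart, a clock repressor, had 4.65, 3.37 and 3.62 FPKM in mutants, against 7.09, 8.45 and 7.80 in controls (log2 change -0.85, SE 0.11), and of 18 members 10 rose and 5 fell, or 3 to 5 fell in fits without 1 library. Immediate early genes, which can respond to handling, rose in 9 of 17 and fell in 4. Fos was higher (40.8, 25.2 and 33.5 FPKM in mutants, against 14.2, 11.9 and 16.7 in controls, log2 change 1.15, SE 0.17), Egr1 (18.1, 11.8 and 15.6 FPKM in mutants, against 33.8, 36.6 and 38.4 in controls, log2 change -1.22, SE 0.14) and Nr4a1 (8.49, 9.59 and 8.48 FPKM in mutants, against 35.0, 31.3 and 42.1 in controls, log2 change -1.91, SE 0.11) were lower, and Jun did not pass (log2 change 0.085, SE 0.0593). The part of collection time and handling in the values of Per1 and of the glucocorticoid targets was not tested.

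Metabolic genes moved by pathway. Antioxidant genes rose in 15 of 21 and fell in 0 (14 higher and 1 lower at equal total FPKM). Gpx3, the secreted glutathione peroxidase, had 498, 587 and 546 FPKM in mutants, against 67.3, 70.7 and 68.2 in controls (log2 change 2.96, SE 0.0690, adjusted p = 3.4e-07). Prdx6, a peroxiredoxin with a role in surfactant turnover, had 381, 376 and 373 FPKM in mutants, against 122, 119 and 149 in controls (log2 change 1.53, SE 0.0880). Both groups were tight and apart. Prdx1, another peroxiredoxin, did not pass (log2 change -0.063, SE 0.0546). Genes of sterol and fatty acid synthesis fell in 17 of 27 and rose in 5 (median -0.43, 3 higher and 20 lower at equal total FPKM). Stard4, a sterol carrier, had 10.9, 11.1 and 10.4 FPKM in mutants, against 31.2, 30.7 and 20.9 in controls (log2 change -1.25, SE 0.14, adjusted p = 2.0e-04), and the sterol enzymes Dhcr7 (5.49, 4.37 and 5.17 FPKM in mutants, against 12.4, 12.7 and 10.0 in controls, log2 change -1.08, SE 0.11) and Cyp51 (7.07, 6.83 and 6.61 FPKM in mutants, against 15.7, 14.9 and 12.0 in controls, log2 change -0.95, SE 0.0975) were lower. The fatty acid desaturase Scd1 (231, 228 and 228 FPKM in mutants, against 154, 140.1 and 157 in controls, log2 change 0.60, SE 0.0591) and the carboxylase Acaca (log2 change 0.45, SE 0.0715) went the other way. Glycolysis and hypoxia genes rose in 12 of 25 and fell in 2, a called share of 56.0% against 55.6% over all tested genes. Their median was 0.18, or 0.017 at equal total FPKM. Those that rose were led after Hif3a by Hk2 (11.7, 7.03 and 9.24 FPKM in mutants, against 2.72, 2.51 and 2.79 in controls, log2 change 1.47, SE 0.15), Bnip3 (50.0, 60.3 and 51.8 FPKM in mutants, against 19.8, 19.3 and 20.8 in controls, log2 change 1.39, SE 0.0762) and Slc2a1 (18.3, 19.5 and 19.7 FPKM in mutants, against 7.64, 7.26 and 9.83 in controls, log2 change 1.13, SE 0.10). Ldha did not pass (log2 change -0.024, SE 0.0883). Of respiratory chain subunits 21.1% were called, 3 higher and 5 lower of 38, although 0 were higher and 21 lower at equal total FPKM. Ribosomal protein genes were slightly higher in 32 of 44 (median 0.28), with Rps19 largest (log2 change 0.63, SE 0.11). At equal total FPKM 10 were higher and 2 lower. In fits without 1 library 13 to 39 were higher, the fewest without mutant replicate 3 or without control replicate 1 or 2.

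Genes of the unfolded protein response did not move as one. Herpud1, which helps to degrade misfolded proteins, had 164, 101 and 131 FPKM in mutants, against 48.6, 48.0 and 58.1 in controls (log2 change 1.32, SE 0.16, adjusted p = 3.3e-04). Dnajb9, a chaperone induced by XBP1, had 52.4, 52.2 and 51.9 FPKM in mutants, against 34.8, 31.7 and 33.4 in controls (log2 change 0.63, SE 0.0508). Among the members that fell were the chaperones Pdia4 at 66.7, 57.6 and 64.4 FPKM in mutants, against 99.4, 98.3 and 94.8 in controls (log2 change -0.63, SE 0.0637) and Hyou1 at 23.7, 21.5 and 22.0 FPKM in mutants, against 33.1, 31.7 and 30.9 in controls (log2 change -0.49, SE 0.0575). Of 21 members 6 rose and 10 fell (3 higher and 11 lower at equal total FPKM), and Atf4 (log2 change 0.15, SE 0.0551) and Canx (log2 change -0.12, SE 0.0526) did not pass. Among neural transcripts, Calca, which encodes the neuropeptide CGRP of neuroendocrine cells and sensory nerves, had 7.85, 9.85 and 9.54 FPKM in mutants, against 0.524, 0.896 and 1.45 in controls (log2 change 2.39, SE 0.17), with all mutants above all controls.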

How the data were processed

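Whole-lung RNA was sequenced for 3 Nlrp3 mutant and 3 Control samples, grouped by the labels. The values, 1 table deposited by the authors, were read as FPKM per gene, a unit that neither its header nor the labels name. They are not whole and have no fixed sum, and among genes under 0.1 the value times the exon length in kb had a 10th percentile of 0.0745, 0.0749 and 0.0817 in mutants and 0.0639, 0.0743 and 0.079 in controls, with 5th to 25th percentiles close to it, as steps of 1 fragment would give. Whether reads or fragments were counted, and any further scaling, is unknown. STAR and the build GRCm38/mm10 are named in the submitters' processing notes. The program that made the FPKM, the annotation, its treatment of shared reads and whether strand was used are not given in the sources used here. Overlapping and antisense genes could therefore share reads. Of 24354 lines, 27 with names turned into dates were left out. Positions came from the GENCODE annotation of the same build, matched by symbol for 23289 genes, and promoters from the RefSeq table for GRCm38.p6.

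Genes with at least 1 FPKM in at least 3 libraries were tested with limma 3.58.1 in R 4.3.3 on log2(FPKM + 1), with an intensity trend and Benjamini-Hochberg adjustment over all 13549, which understates changes of low genes. Every adjusted p in the text comes from this fit, at a threshold of 0.05. The median SE was 0.081 on the log2 scale. Read counts are unknown, so no counting interval is given. On simulated data (10 draws, 200 changed genes each) the fit recovered 58.4%, 90.1% and 98.8% of log2 changes of 0.5, 1 and 2, and 3.57% of calls were false. These rates hold for 200 changed genes of 13549 with independent noise. In the data 55.6% of genes were called, so the rates are not those of this comparison.

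Gene lists and the comparison itself were chosen with earlier results of these data known. Named genes were the alleles and cytokines of the study, the largest changes in fold and in FPKM with a mean of at least 5 FPKM, and in each list the largest passing changes, those against the median and the highest that did not pass. Axin2, Fbln5, Igf1, Igf2, Il1rn, Klf9, Marco, Mmp15, Nkx2-1, Orm1, Prtn3, Slpi, Sox7, Sox17, Sox18, Tgfb1, Tgfbr1 and Tsc22d3 fell outside that rule, and were chosen for their roles after their values were seen, as were the 3 genes with printed promoters. Alternatives covered scaling, pseudocount, expression filter, replicate block, array weights, each library left out, sex chromosomes left out and a fold minimum. Same-numbered samples did not deviate together (r of -0.077, 0.046 and 0.113), so the numbers were not taken as pairs. Results on some genes covered by the naming rule are not reported here.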

Additional observations from a re-analysis of the deposited data

How the results depend on the processing

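With no read counts and 3 samples a group, precision rests on the spread between samples, and group and sex coincide. The 7528 calls (3788 higher, 3740 lower) became 6145 to 7114 when 1 library was left out (3090 to 3630 higher, 3049 to 3578 lower). At equal total FPKM 8001 genes were called, 2400 higher and 5601 lower. Only 1096 also had an absolute log2 change of at least 1, with 583 higher and 513 lower, a stricter rule by construction. Other totals were 7533 after median-of-ratios scaling, 7486 with a pseudocount of 0.1, 7879 without the expression filter, 5753 at a mean of at least 5 FPKM (fewer genes tested), 9405 in a robust fit with array weights, whose estimation stopped before convergence, and 7272 without chromosomes X and Y. Of 650 tested genes that the naming rule covers, 58 had another sign at equal total FPKM, and 56 of these were called in neither fit. The other 2 were Id1, with a log2 change of -0.156 and a call there, and Sdha, a respiratory chain subunit, with -0.027 and its call lost. In that setting 535 of the 650 kept both sign and call, 19 lost the call and 40 gained one. Outside that rule Nkx2-1 and Tgfbr1 lost theirs. Of the genes under it, Ano1, Canx, Casp8, Ccr2, E2f2, Id1, Mmp2, Prdx1, Shh, Stab1, Tgfbi and Vegfa, which did not pass as reported, were lower. In the other settings 0 to 25 of these genes had another sign, none of them called in either fit.

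With the replicate number as a block 7009 genes were called, 3544 higher and 3465 lower. The block is not a paired analysis of shared animals, since same-numbered samples correlated with r of -0.077, 0.046 and 0.113 in their deviations. Of the 650 genes 625 kept their call under the block, 11 lost it and 14 gained one.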

Other observations

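Short RNA genes stood at the extreme of the table. Mir703 was listed at 0 in all mutant libraries and at 359, 594 and 744 FPKM in the controls, and Snora81, a small nucleolar RNA, was listed at 0 in all mutant libraries and at 17.8, 6.28 and 9.25 FPKM in the controls. Rn45s, the precursor of ribosomal RNA, had 693, 545 and 874 FPKM in mutants, against 1684, 1304 and 692 in controls (log2 change -0.73, SE 0.31). The groups overlapped for Rn45s, and no cause was tested for any of the 3. Rn45s was named after its values were seen.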
